A study of Rattus norvegicus with 64 samples.

Results

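Reln, Calb1, Wfs1, Cux1, Cux2, and Pou3f2 are used as markers of the neurons of layer II of the cortex, and their RNA was followed here in rat entorhinal cortex across layers, regions, and postnatal ages. The 6 genes were chosen by name as layer II markers, not by a rule on their values, but earlier results of these data were known. Of the 6, 5 were measured, out of 17260 genes in all, and Cux1 was not analysed here. The study sequenced total RNA from layer II (LII) and from the deep layers (LDeep) of the medial entorhinal cortex (MEC) and the lateral entorhinal cortex (LEC). In the MEC, LDeep is layers III–VI as 1 piece. For the LEC the labels say only deep layers. Long Evans rats were sampled at postnatal day 2 (P2), P9, P23, and P45, with 5, 4, 3, and 4 replicates per region and layer, which gives 16 groups and 64 samples. The labels give no genotype or treatment, so the groups differ by region, layer, and age, and share the strain. The study describes the slicing and the dissection of unstained layers under a microscope for the MEC. A sample is a piece of tissue with all its cell types, so fewer cells of a type and less RNA per cell cannot be told apart. The study speaks of biological replicates, but the labels do not say whether they came from separate animals. The replicates differed by more than sampling noise. P-values therefore measure the spread between these samples, part of which may be technical.

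Layer II of the entorhinal cortex sends the main input to the hippocampus. In the MEC its principal neurons are stellate cells, most of which make the secreted glycoprotein reelin, and pyramidal cells, which contain the calcium buffer calbindin and the endoplasmic reticulum protein wolframin. The LEC has reelin-positive fan cells and calbindin-positive pyramidal cells in its layer II. Cux1 and Cux2 are cut-type homeobox factors and Pou3f2 (Brn2) is a POU-domain factor, all of them known from upper-layer cortical neurons.

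With the 4 ages weighted equally, 5 of the 5 measured markers were higher in LII than in LDeep of the MEC (edgeR, Benjamini-Hochberg adjusted p below 0.05), where 21.0% of all genes tested were higher. In the LEC, 2 of 5 were higher, Reln and Calb1, against 17.4% of all genes. The median log2 fold change (LFC, LII against LDeep) of the markers was 1.03 in the MEC and 0.17 in the LEC, beside -0.03 and -0.057 over all genes. Scaling on pan-neuronal genes instead of all genes moves every LFC between layers up, the median of all genes by 0.15 in the MEC and 0.23 in the LEC, and on that scale Wfs1, Cux2, and Pou3f2 in the LEC were called higher as well (LFC 0.42, 0.34, and 0.39). Over age, Wfs1 rose in every tissue, and Calb1 and Cux2 rose in LII, whereas Reln in LII of the MEC fell. Each gene is described in turn, in CPM (counts scaled to a common library size). Whether the samples of compared groups overlap is given as a description only. The share of all genes without overlap was not computed, and groups this small can lie apart by chance.

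On the build of the files, rn6, Reln lies on the forward strand at chr4:9347607-9774115, with 64 annotated exons that sum to 11462 bases. Calb1 lies at chr5:29538380-29562774 on the forward strand (11 exons, 1706 bases). Wfs1 is at chr14:78648276-78665224 on the forward strand (7 exons, 2731 bases), and Cux2 at chr12:40018937-40219291 on the forward strand (23 exons, 5092 bases). Pou3f2 lies on the reverse strand at chr5:36681528-36683356, with 2 exons and 1817 exonic bases. Counts fall on the exons of these genes. Reln had 605 to 15472 counts per sample, Calb1 101 to 2646, Wfs1 40 to 5578, and Cux2 257 to 1722. With 19 to 120 counts, Pou3f2 carried the largest counting error of the 5, and all 5 passed the filter on low counts.

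The bases before the annotated start of transcription show what the promoters of these genes have in common and where they differ. The sequences are from RefSeq on the rat build GRCr8, a later build than that of the files, and cover 250 bases up to the start, written 5′ to 3′ on the strand of the gene for the 4 members with a match. Capitals mark motifs found on either strand: the binding motif of cut-type factors (ATCGAT), the POU octamer (ATGCAAAT), the CCAAT box (CCAAT), the GC box (GGGCGG), and the TATA box (TATAAA).

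Reln, chr4:13628318-13628567, forward strand: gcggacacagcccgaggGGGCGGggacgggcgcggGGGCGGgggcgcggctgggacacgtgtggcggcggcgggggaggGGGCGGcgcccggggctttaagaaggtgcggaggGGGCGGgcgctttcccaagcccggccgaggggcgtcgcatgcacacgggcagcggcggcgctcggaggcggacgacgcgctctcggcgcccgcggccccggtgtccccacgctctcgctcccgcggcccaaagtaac
Wfs1, chr14:78034955-78035204, forward strand: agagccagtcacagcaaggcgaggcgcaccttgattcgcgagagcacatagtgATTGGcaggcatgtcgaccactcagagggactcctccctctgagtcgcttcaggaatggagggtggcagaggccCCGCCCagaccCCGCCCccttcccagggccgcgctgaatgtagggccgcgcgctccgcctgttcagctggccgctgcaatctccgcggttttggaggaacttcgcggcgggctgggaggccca
Cux2, chr12:40179032-40179281, forward strand: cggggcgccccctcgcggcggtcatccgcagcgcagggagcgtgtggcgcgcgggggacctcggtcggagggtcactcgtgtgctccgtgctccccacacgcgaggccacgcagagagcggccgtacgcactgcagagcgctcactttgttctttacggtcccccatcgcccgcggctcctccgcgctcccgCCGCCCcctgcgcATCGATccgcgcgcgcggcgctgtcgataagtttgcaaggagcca
Pou3f2, chr5:40880540-40880789, reverse strand: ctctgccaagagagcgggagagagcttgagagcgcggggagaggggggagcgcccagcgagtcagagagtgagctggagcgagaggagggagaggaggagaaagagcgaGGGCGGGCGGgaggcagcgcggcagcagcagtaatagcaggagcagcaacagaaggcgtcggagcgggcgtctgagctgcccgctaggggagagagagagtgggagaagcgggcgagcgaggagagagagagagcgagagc

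All 4 promoters were rich in G and C, with 80.0% in Reln, 66.0% in Wfs1, 72.4% in Cux2, and 66.8% in Pou3f2, beside a median of 51.2% over 33469 rat promoters of the same length. Each held at least 1 GC box, which 30.5% of all promoters hold. Reln had 4, Wfs1 2, Cux2 1, and Pou3f2 2 that overlap each other. Cux2 held the cut-type motif, 45 bases before its start, a motif present in 0.7% of all promoters. Wfs1 held a CCAAT box on the opposite strand, read as ATTGG, and such a box is found in 34.0% of promoters. The octamer (1.6% of promoters) and the TATA box (12.9%) had no match in these windows.

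The labelled layers were checked against markers of other cells. Gene counts summed to 3894334 to 11439143 per sample (median 7569157.5). Between these layers 40.8% of all genes in the MEC and 38.6% in the LEC were called in either direction. Of 14 deep-layer neuron genes, 13 were lower in LII than in LDeep of the MEC and 12 in the LEC, and Ntsr1 was higher in LII of the MEC (LFC 0.95). Of 12 genes of meningeal fibroblasts, which cover the surface next to layer II, 11 were higher in LII in the MEC and 11 in the LEC (median LFC 3.07 and 4.62). Their summed level was 31.8 to 1891 CPM (median 1167) in MEC LII and 69.5 to 1200.0 CPM (median 161) in MEC LDeep, and 831 to 1806 CPM (median 1303) against 39.2 to 263 CPM (median 121) in the LEC. Of the 64 samples, 5 stood apart from their groups, with a root mean square deviation of 0.555 to 0.770 on the log2 scale, beside at most 0.419 in the other 59. They are MEC LII P2 replicate 1 (meningeal sum 31.8 CPM, interneuron sum 1672 CPM), MEC LII P2 replicate 3 (meningeal sum 70.5 CPM), MEC LDeep P2 replicate 1 (meningeal sum 1200.0 CPM), MEC LDeep P2 replicate 4 (deep-layer sum 3046 CPM), and LEC LDeep P45 replicate 4 (deep-layer sum 1383 CPM). The last of these is described with Reln, Wfs1, and Cux2. Its deep-layer sum was the lowest of a group range of 1383 to 1753 CPM. Its sum over the 5 measured markers was 1633 CPM, beside a group median of 815 CPM. MEC LII P2 replicate 1 also had a choroid plexus and ependyma sum of 162.4 CPM, beside a group median of 6.3 CPM. Its astrocyte sum was 2135 CPM (group median 1107) and its glutamatergic neuron sum 690 CPM (group median 1203). A fit without these 5 samples, chosen after seeing the data, is given wherever it moved a call or moved a called LFC by more than 1.5 times.

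**Figure D1:**
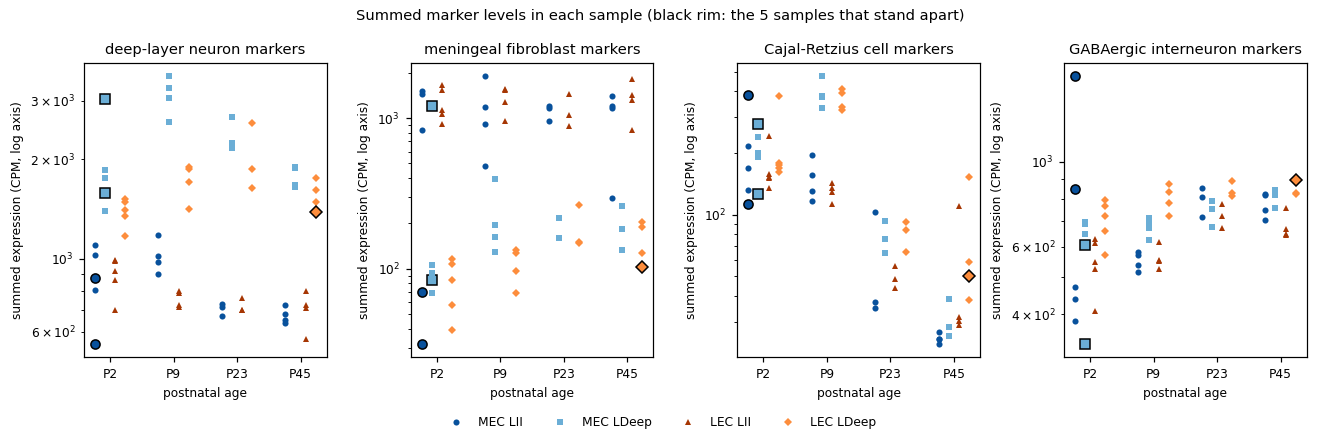
Summed expression (CPM, log axis) of 4 lists of marker genes in each of the 64 samples, by postnatal age, with 1 symbol per region and layer and a black rim on the 5 samples that stand apart. Deep-layer neuron markers lie higher in LDeep and meningeal fibroblast markers higher in LII in most samples, with MEC LII P2 replicate 1 at 31.8, MEC LII P2 replicate 3 at 70.5, and MEC LDeep P2 replicate 1 at 1200.0 CPM of meningeal markers as exceptions. On average over all samples, Calb2 is the largest part of the Cajal-Retzius sum.

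Reln encodes reelin, a glycoprotein that is secreted into the matrix and guides the placing of neurons and the growth of their dendrites. At P2, Reln was at 642, 973, 996, 947, and 1459.6 CPM in MEC LII and 717, 292, 238, 335, and 202 CPM in MEC LDeep. In the LEC at P2, Reln was at 904, 990.0, 757, 1071, and 901 CPM in LII and 366, 386, 265, 222, and 206 CPM in LDeep. The LEC layers did not overlap, and in the MEC 1 LDeep sample, replicate 1, lay above the lowest LII sample. Reln was higher in LII of the MEC at this age (LFC 1.49, SE 0.34, adjusted p = 0.00287). The LEC showed the same direction (LFC 1.68, SE 0.34, adjusted p = 0.000283). Without the samples that stand apart, the P2 difference in the MEC was larger (LFC 2.25, adjusted p = 1.59e-05). At P9, Reln was at 520.0, 574, 776, and 672 CPM in MEC LII and 116, 128, 142, and 62.2 CPM in MEC LDeep. Reln in the LEC at P9 was at 643, 546, 388, and 1087 CPM in LII and 125, 136, 211, and 247 CPM in LDeep. Every LII sample lay above every LDeep sample of its region at P9. The MEC difference passed the test (LFC 2.50, SE 0.39, adjusted p = 7.02e-06), as did the LEC difference (LFC 1.89, SE 0.38, adjusted p = 0.000266).

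At P23, Reln was at 454, 921, and 465 CPM in MEC LII and 239, 234, and 152 CPM in MEC LDeep. At the same age in the LEC, LII had 643, 401, and 594 CPM and LDeep 302, 384, and 167 CPM of Reln. The layers again did not overlap in either region, although the lowest LII and the highest LDeep sample of the LEC lay close together. The MEC difference passed the test at P23 (LFC 1.56, SE 0.44, adjusted p = 0.00893). The LEC difference did not (LFC 0.94, SE 0.43, adjusted p = 0.161), but it passed with samples of the age alone (LFC 0.95, adjusted p = 0.0434) and with pan-neuronal scaling (1.25, adjusted p = 0.0323). At P45, Reln was at 427, 426, 341, and 535 CPM in MEC LII and 169.6, 310.1, 157, and 385 CPM in MEC LDeep. Its LEC values at P45 were 448, 898, 414, and 1239 CPM in LII and 187, 366, 198, and 715 CPM in LDeep. At the oldest age the layers overlapped in both regions, in the MEC through replicate 3 of LII and replicate 4 of LDeep and in the LEC through replicate 4 of LDeep alone. Neither difference passed the test at P45 (MEC LFC 0.76, SE 0.37, adjusted p = 0.19). The LEC value was close to the threshold (LFC 1.04, SE 0.37, adjusted p = 0.0546) and passed it with voom (LFC 1.22, adjusted p = 0.0157) and with pan-neuronal scaling (1.33, adjusted p = 0.00681). LEC LDeep P45 replicate 4 is one of the samples that stand apart, and without them the LEC difference at P45 was significant (LFC 1.55, adjusted p = 0.000872). Of fits that each left out all samples of 1 replicate number at 1 age, the LEC difference at P45 passed the test without P2 replicate 1, P9 replicate 4, and P45 replicate 4 (LFC 1.03 to 1.19, adjusted p from 0.0255 to 0.0455). The MEC call at P23 was lost without P23 replicates 2 and 3 (LFC 1.26 to 1.49, adjusted p from 0.0787 to 0.151).

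Over the 4 ages, Reln was 2.99-fold higher in LII than in LDeep of the MEC (LFC 1.58, SE 0.19, adjusted p = 2.16e-09). In the LEC it was 2.61-fold higher (LFC 1.39, SE 0.19, adjusted p = 3.73e-08). The size of the layer difference was not shown to depend on the region (LFC 0.19, SE 0.27, adjusted p = 0.815). Reln did not differ by the test between MEC and LEC in LII (LFC -0.14, adjusted p = 0.686) or in LDeep (LFC -0.34, adjusted p = 0.392). With age, Reln in MEC LII was 1.55-fold lower at P23/P45 than at P2/P9 (LFC -0.63, SE 0.27, adjusted p = 0.0345). This call was lost in 4 of the 16 fits with a replicate number left out (without P2 replicate 5, P9 replicate 3, and P23 replicates 1 and 3, LFC -0.59 to -0.58, adjusted p from 0.0526 to 0.0929). The other tissues gave 0.21 in MEC LDeep, -0.29 in LEC LII, and 0.50 in LEC LDeep (LFC), none of them called (adjusted p = 0.505, 0.341, and 0.0932). The LEC LDeep change passed the test without P23 replicate 3 and P45 replicates 1 and 3 (LFC 0.60 to 0.63, adjusted p from 0.0447 to 0.0496). In MEC LDeep the step from P2 to P9 was a fall (LFC -1.67, SE 0.37, adjusted p = 0.00023), smaller without the 5 samples (LFC -1.11, adjusted p = 0.00751). The layer difference at P23/P45 was not shown to differ from that at P2/P9 in the MEC (LFC -0.84, SE 0.38, adjusted p = 0.215) or in the LEC (LFC -0.79, SE 0.38, adjusted p = 0.368). Without the 5 samples it did in the MEC (LFC -1.26, adjusted p = 0.0122). The fall from P2 to P9 in MEC LII also passed without them (LFC -0.85, adjusted p = 0.0431; LFC -0.66, adjusted p = 0.143 with them). The rise from P9 to P23 in MEC LDeep (LFC 0.89, adjusted p = 0.0702) passed without them too (LFC 0.90, adjusted p = 0.0279), and without P2 replicate 1 and P45 replicate 4 (LFC 0.90 to 0.91, adjusted p from 0.0408 to 0.0494).

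Reelin is also made by Cajal-Retzius cells, early neurons of layer I, and by some interneurons. Of 7 Cajal-Retzius genes tested, 4 were higher and 1 lower in LII than in LDeep of the MEC (median LFC 2.10). Between these layers 40.8% of all genes in the MEC and 38.6% in the LEC were called in either direction, and this is the background of all lists in this paragraph. The LEC had 2 higher and 1 lower (median LFC 1.32). The lower one was Calb2 in both regions (LFC -0.93 and -1.17), which other neurons make as well. The summed level of the list was 23.4 to 383 CPM (median 115) in MEC LII and 25.4 to 474 CPM (median 159) in MEC LDeep. Calb2 was the largest part of this sum, with a mean of 110.7 CPM over all samples. Cxcr4 followed at 24.4 CPM, and the others had means of at most 5.42 CPM. In MEC LII 7 of 7 fell with age (median LFC -3.45). In that tissue 66.5% of all genes changed. The defining gene Tp73 was at 9.61 to 22.3 CPM in MEC LII at P2 and at 0.609 to 12.1 CPM in MEC LDeep. At P45 in MEC LII, Tp73 was at 0 to 0.689 CPM, Lhx1 at 0 to 0.178, and Lhx5 at 0 to 0.178, each at 0 in 2 of 4 samples, and Nhlh2 was at 0 to 0.535 CPM. The other members of the list were above 0 in all 4, with Ebf3 at 0.123 to 0.357, Cxcr4 at 4.23 to 6.42, and Calb2 at 15.5 to 21.2 CPM. Reln in the same samples stood at 341 to 535 CPM, but CPM does not compare levels between genes of unlike exon length. Of 14 interneuron genes, 5 were higher and 3 lower in LII of the MEC, and 2 higher and 4 lower in LII of the LEC. Their summed level was 384 to 1672 CPM (median 709.9) in MEC LII, 334 to 843 CPM (median 695) in MEC LDeep, 406 to 774 CPM (median 623) in LEC LII, and 571 to 895 CPM (median 819.9) in LEC LDeep. Of 9 astrocyte genes, 7 were higher in LII of the MEC and 6 of the LEC (median LFC 0.94 and 0.62), with a summed level of 990.2 to 6205 CPM (median 3505) in MEC LII and 595 to 4174 CPM (median 1831) in MEC LDeep. The endothelial list had 8 of 8 higher in LII of the MEC and 8 in the LEC, and the pan-neuronal list had 5 of 15 lower in LII of the MEC and 10 in the LEC. The part of these cells, and of the meningeal tissue, in the layer differences of Reln and the other markers was not tested.

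**Figure D2:**
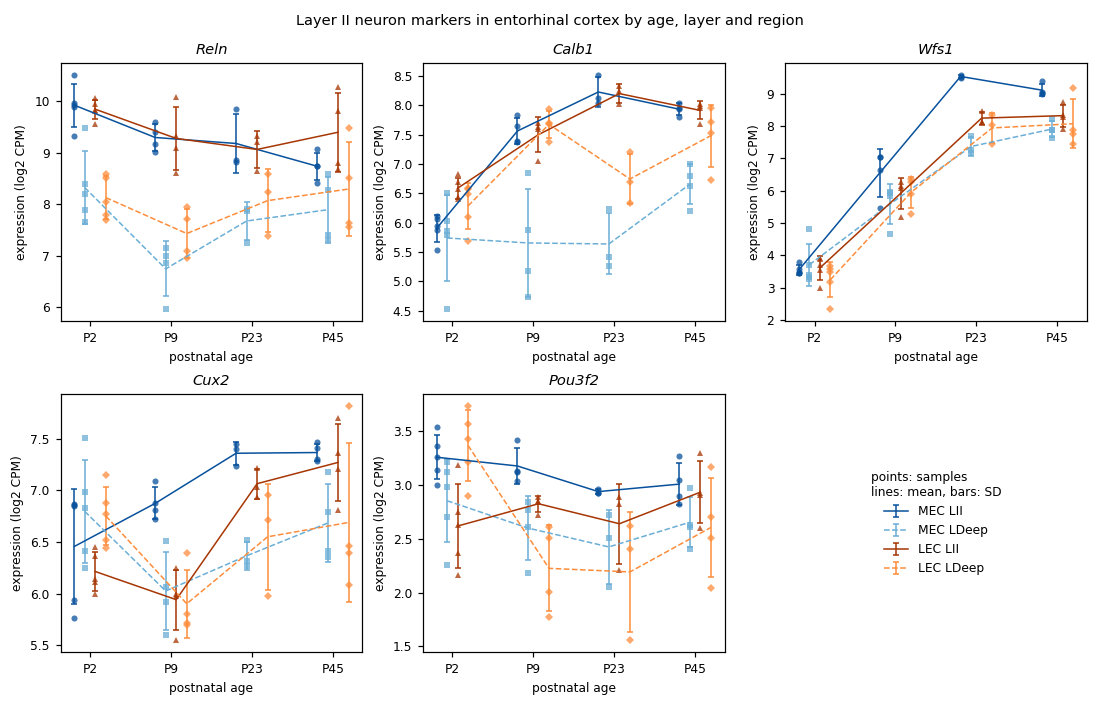
Expression of the 5 measured markers (log2 CPM, prior count 2) against postnatal age, 1 panel per gene. Points are samples, lines join group means, and bars are SD over 3 to 5 samples, with LII as solid and LDeep as dashed lines, the MEC in blue and the LEC in brown and orange. Reln keeps LII above LDeep in mean at every age in both regions, Wfs1 climbs in all 4 tissues from P2 to P23, and Calb1 in MEC LDeep stays below the other 3 tissues from P9 on.

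Calb1 encodes calbindin, a cytosolic calcium buffer with EF-hand domains. At P2, Calb1 was at 45.9, 66.6, 61.0, 58.3, and 68.9 CPM in MEC LII and 57.5, 90.6, 64.7, 22.8, and 55.3 CPM in MEC LDeep. In the LEC at P2, Calb1 was at 103, 86.6, 114, 84.5, and 94.5 CPM in LII and 95.8, 51.5, 94.5, 68.1, and 89.8 CPM in LDeep. The layers overlapped in both regions at this age, and no layer difference was found in the MEC (LFC 0.037, SE 0.25, adjusted p = 0.943). None was found in the LEC (LFC 0.27, SE 0.25, adjusted p = 0.565). All LII samples of the MEC lay below all LII samples of the LEC, a difference that missed the threshold (LFC -0.68, SE 0.25, adjusted p = 0.0997) and passed it with samples of the layer alone (LFC -0.69, adjusted p = 0.00259). At P9, Calb1 was at 165, 201, 228, and 168 CPM in MEC LII and 26.3, 35.8, 114, and 58.5 CPM in MEC LDeep. Calb1 in the LEC at P9 was at 194, 199, 209, and 133 CPM in LII and 245, 205, 208, and 167 CPM in LDeep. MEC LII lay above MEC LDeep without overlap, with LFC 1.69, SE 0.28, adjusted p = 2.78e-05. The LEC layers overlapped (LFC -0.17, SE 0.27, adjusted p = 0.743). All 4 LDeep samples of the MEC were below all 4 of the LEC (LFC -1.80, SE 0.29, adjusted p = 4.09e-05).

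At P23, Calb1 was at 264, 367, and 278 CPM in MEC LII and 38.1, 74.8, and 42.6 CPM in MEC LDeep. At the same age in the LEC, LII had 259.8, 323, and 303 CPM and LDeep 147, 104, and 80.8 CPM of Calb1. LII lay above LDeep without overlap in the MEC (LFC 2.54, SE 0.34, adjusted p = 1.69e-07). The same held for the LEC (LFC 1.42, SE 0.32, adjusted p = 0.002). At P45, Calb1 was at 246, 248, 223, and 263 CPM in MEC LII and 98.4, 128, 73.3, and 111 CPM in MEC LDeep. Its LEC values at P45 were 247, 254, 261, and 206 CPM in LII and 209.9, 247, 185, and 106 CPM in LDeep. The layers remained apart in the MEC (LFC 1.25, SE 0.28, adjusted p = 0.000994). Those of the LEC overlapped (LFC 0.37, SE 0.28, adjusted p = 0.444). In LDeep the MEC was below the LEC in all samples at P23 and relative to all but LEC replicate 4 at P45. Neither age passed the test on its own (LFC -1.09, adjusted p = 0.138 and LFC -0.87, adjusted p = 0.105). Without the samples that stand apart both did (LFC -1.08, adjusted p = 0.0284 and LFC -1.05, adjusted p = 0.0116). Both also did with samples of the age alone (LFC -1.09, adjusted p = 0.0323) at P23 and with samples of the age alone (LFC -0.87, adjusted p = 0.0363) at P45. The P23 call in the LEC was lost without P23 replicate 3 (LFC 1.18, adjusted p = 0.0922).

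Over the ages, Calb1 was 2.61-fold higher in LII than in LDeep of the MEC (LFC 1.38, SE 0.14, adjusted p = 3.57e-11). The LEC difference was 1.39-fold (LFC 0.47, SE 0.14, adjusted p = 0.00574). By the test of the difference itself, the layers of the MEC differed more (LFC 0.91, SE 0.20, adjusted p = 0.00691). This call failed in 1 of 16 fits that left out a replicate number (without P23 replicate 1, LFC 0.78, adjusted p = 0.0771) and with pan-neuronal scaling (LFC 0.83, adjusted p = 0.057). LII did not differ between regions by the test (LFC -0.14, adjusted p = 0.564). LDeep of the MEC was 2.07-fold lower than LDeep of the LEC (LFC -1.05, SE 0.14, adjusted p = 3.97e-07). At P23/P45 Calb1 was higher than at P2/P9 in LII of the MEC (LFC 1.35, SE 0.20, adjusted p = 4.17e-08). LII of the LEC rose as well (LFC 1.00, SE 0.20, adjusted p = 1.67e-05). In LDeep the change with age was 0.31 in the MEC and 0.16 in the LEC (LFC, adjusted p = 0.169 and 0.48). MEC LDeep passed the test without P9 replicate 3 (LFC 0.59, adjusted p = 0.00637), the number whose MEC LDeep sample was highest at P9. From P2 to P9 Calb1 in LII rose by 1.67 in the MEC and 0.93 in the LEC (LFC, adjusted p = 1.84e-06 and 0.00599). LEC LDeep rose over the same step (LFC 1.37, adjusted p = 5.13e-05) and fell from P9 to P23 (LFC -0.90, adjusted p = 0.015). The fall was lost without P23 replicates 2 and 3 (LFC -0.88 to -0.71, adjusted p from 0.0514 to 0.122). MEC LDeep was at an LFC of 0.013 from P2 to P9. The step from P9 to P23 in LII missed the threshold (LFC 0.67, adjusted p = 0.0664 in the MEC and LFC 0.68, adjusted p = 0.0657 in the LEC). It passed without the 5 samples (LFC 0.63, adjusted p = 0.0372 and LFC 0.66, adjusted p = 0.0335). The MEC step also passed without P2 replicate 4 and P9 replicate 3 (LFC 0.67 to 0.76, adjusted p from 0.033 to 0.0486), and the LEC step without P2 replicate 4 and P9 replicate 3 (LFC 0.68 to 0.74, adjusted p from 0.0435 to 0.0479) or with samples of the region alone (LFC 0.65, adjusted p = 0.0183). The layer difference of the MEC grew with age (LFC 1.04, SE 0.28, adjusted p = 0.0188). That call was lost in 6 of 16 left-out fits (without P9 replicates 3 and 4, P23 replicates 1 and 3, and P45 replicates 1 and 3, LFC 0.81 to 0.96, adjusted p from 0.058 to 0.0869) and with MEC samples alone (LFC 1.04, adjusted p = 0.0793). The LEC gave LFC 0.84, SE 0.28, adjusted p = 0.113, and it was called with samples of the region alone (LFC 0.78, adjusted p = 0.0246), so that the calls of the regions changed places in fits of 1 region. Some interneurons make calbindin as well, and their marker counts by layer are those given with Reln.

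Wfs1 encodes wolframin, a membrane protein of the endoplasmic reticulum with roles in calcium balance and the stress response of that organelle. At P2, Wfs1 was at 13.5, 10.7, 10.9, 11.7, and 10.7 CPM in MEC LII and 10.3, 12.8, 9.47, 28.2, and 9.86 CPM in MEC LDeep. In the LEC at P2, Wfs1 was at 11.5, 12.9, 7.64, 14.7, and 14.6 CPM in LII and 12.6, 10.9, 4.80, 11.6, and 8.71 CPM in LDeep. Levels were low and the layers overlapped in both regions (MEC LFC -0.24, adjusted p = 0.654; LEC LFC 0.34, adjusted p = 0.588), and the highest value was that of MEC LDeep replicate 4, one of the samples that stand apart. At P9, Wfs1 was at 100.0, 133, 130.2, and 43.6 CPM in MEC LII and 60.3, 56.7, 61.5, and 25.1 CPM in MEC LDeep. Wfs1 in the LEC at P9 was at 76.2, 67.3, 70.4, and 36.5 CPM in LII and 76.9, 59.9, 81.1, and 38.7 CPM in LDeep. Replicate 4 was the lowest sample in all 4 tissues at this age. MEC LII was higher than MEC LDeep (LFC 1.00, SE 0.31, adjusted p = 0.0185), with LII replicate 4 below 3 of the LDeep samples. The LEC layers overlapped (LFC -0.032, SE 0.31, adjusted p = 0.967).

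At P23, Wfs1 was at 732, 765, and 717 CPM in MEC LII and 142, 206, and 152 CPM in MEC LDeep. At the same age in the LEC, LII had 279.5, 354, and 279 CPM and LDeep 262, 325, and 172 CPM of Wfs1. All MEC LII samples were above all other samples of P23, both MEC LDeep (LFC 2.15, SE 0.36, adjusted p = 1.8e-05) and LEC LII (LFC 1.28, SE 0.35, adjusted p = 0.0347). The layers of the LEC overlapped (LFC 0.26, SE 0.35, adjusted p = 0.698). At P45, Wfs1 was at 531, 512, 507, and 669 CPM in MEC LII and 235, 236, 196, and 299 CPM in MEC LDeep. Its LEC values at P45 were 311, 427, 239, and 324 CPM in LII and 175, 217, 235, and 579 CPM in LDeep. MEC LII stayed above MEC LDeep without overlap (LFC 1.20, SE 0.30, adjusted p = 0.00367). It also lay above LEC LII without overlap, a difference that missed the threshold (LFC 0.77, SE 0.30, adjusted p = 0.154) and passed without the samples that stand apart (LFC 0.77, adjusted p = 0.0369). The LEC layers overlapped at P45 (LFC 0.11, SE 0.30, adjusted p = 0.87), and LEC LDeep replicate 4 was the highest of the LEC. The layer call at P9 in the MEC was lost without P9 replicates 1, 2, and 3 (LFC 0.92 to 1.10, adjusted p from 0.0525 to 0.0888). The region call in LII at P23 was lost without P23 replicates 1, 2, and 3 (LFC 1.22 to 1.38, adjusted p from 0.202 to 0.275).

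Over the ages, Wfs1 was 2.04-fold higher in LII than in LDeep of the MEC (LFC 1.03, SE 0.16, adjusted p = 5.87e-07). No layer difference was found in the LEC (LFC 0.17, SE 0.16, adjusted p = 0.423). The difference between these layer differences passed the test (LFC 0.85, SE 0.23, adjusted p = 0.0379). However, 12 of 16 fits that left out a replicate number of an age gave an adjusted p of 0.05 or more (without P2 replicates 1, 2, and 5, P9 replicates 1, 2, and 3, P23 replicates 1, 2, and 3, and P45 replicates 1, 3, and 4, LFC 0.73 to 0.89, adjusted p from 0.05 to 0.173). It was also lost with voom (LFC 0.79, adjusted p = 0.0629) and with pan-neuronal scaling (0.78, adjusted p = 0.0518). LII of the MEC was 1.58-fold higher than LII of the LEC (LFC 0.66, SE 0.16, adjusted p = 0.00253), and LDeep did not differ by the test (LFC -0.19, adjusted p = 0.641). In all 4 tissues Wfs1 had the largest LFC with age of the 5 genes. From P2/P9 to P23/P45 it rose 18.7-fold in MEC LII (LFC 4.22, SE 0.24, adjusted p = 7.87e-22) and 7.63-fold in MEC LDeep (LFC 2.93, SE 0.23, adjusted p = 2.35e-16). The rise was 11.3-fold in LEC LII (LFC 3.50, SE 0.24, adjusted p = 1.06e-18) and 11.0-fold in LEC LDeep (LFC 3.46, SE 0.24, adjusted p = 1.05e-18). The steps from P2 to P9 (LFC 1.90 to 3.14) and from P9 to P23 (LFC 1.71 to 2.86) were called in all 4 tissues. The smallest of each was in MEC LDeep and the largest in MEC LII. The layer difference in the MEC grew with age (LFC 1.29, SE 0.32, adjusted p = 0.00753). The LEC gave LFC 0.038, SE 0.32, adjusted p = 0.991. Markers of other cells moved over the same ages, as 10 of 10 oligodendrocyte genes rose in MEC LII (median LFC 6.78) and 10 in LEC LII (median LFC 4.07). In MEC LII 8 of 15 pan-neuronal genes rose and 3 fell (median LFC 0.63). Of all genes, 66.5% changed in MEC LII and 62.7% in LEC LII. The part of the cells with these markers in the rise of Wfs1 was not tested.

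**Figure D3:**
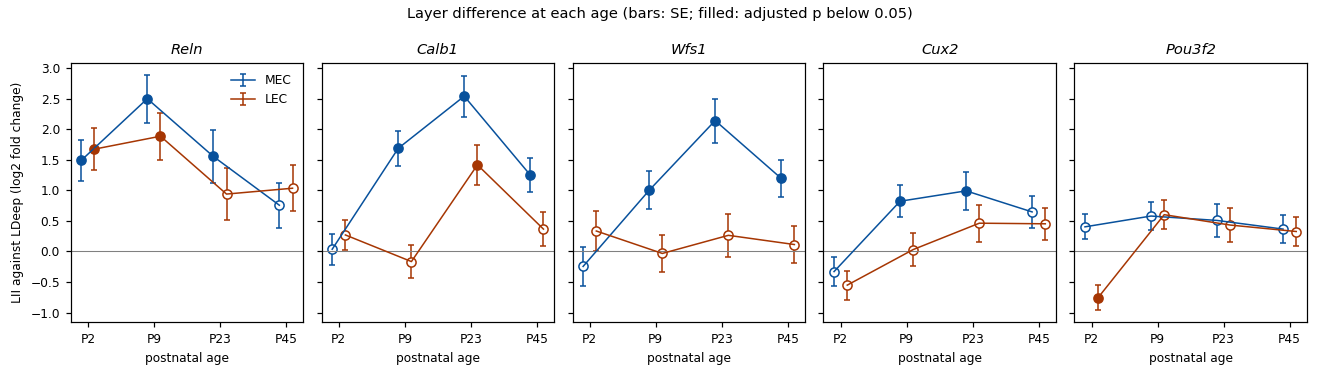
Log2 fold change of LII against LDeep at each postnatal age, 1 panel per gene, with the MEC in blue and the LEC in brown, bars as SE from the edgeR fit, and filled points where the adjusted p is below 0.05. In the MEC the difference of Calb1 goes from 0.037 at P2 to 2.54 at P23 and that of Wfs1 from -0.24 to 2.15, while Reln starts at 1.49.

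Cux2 encodes a cut-type homeobox factor that acts in the nucleus of upper-layer neurons. At P2, Cux2 was at 54.1, 115, 61.1, 117, and 115 CPM in MEC LII and 126, 75.9, 84.8, 182, and 114 CPM in MEC LDeep. In the LEC at P2, Cux2 was at 68.9, 70.1, 63.7, 82.4, and 87.3 CPM in LII and 91.3, 142, 86.7, 118, and 109 CPM in LDeep. At P2 the layers overlapped in both regions, with LDeep higher in mean, and neither difference passed the test (MEC LFC -0.33, adjusted p = 0.382; LEC LFC -0.55, adjusted p = 0.132). Without the samples that stand apart the MEC value turned to an LFC of 0.39, adjusted p = 0.204 and the LEC value passed (LFC -0.52, adjusted p = 0.0261). At P9, Cux2 was at 117, 136, 105, and 112 CPM in MEC LII and 60.4, 90.9, 66.7, and 48.3 CPM in MEC LDeep. Cux2 in the LEC at P9 was at 46.5, 62.8, 63.5, and 75.6 CPM in LII and 52.4, 55.4, 51.6, and 83.7 CPM in LDeep. MEC LII lay above MEC LDeep without overlap (LFC 0.82, SE 0.27, adjusted p = 0.0244). It also lay above LEC LII without overlap (LFC 0.92, SE 0.27, adjusted p = 0.0614), a difference that passed without the samples that stand apart (LFC 0.93, adjusted p = 0.000965). The LEC layers overlapped at P9 (LFC 0.032, adjusted p = 0.959).

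At P23, Cux2 was at 150.4, 174, and 168 CPM in MEC LII and 76.7, 91.4, and 79.3 CPM in MEC LDeep. At the same age in the LEC, LII had 149, 131, and 122 CPM and LDeep 105, 124, and 62.7 CPM of Cux2. MEC LII again lay above MEC LDeep without overlap (LFC 0.99, SE 0.31, adjusted p = 0.0179). In the LEC the lowest LII sample was just below the highest LDeep sample (LFC 0.46, SE 0.30, adjusted p = 0.368). At P45, Cux2 was at 156, 169, 158, and 177 CPM in MEC LII and 85.2, 110.2, 81.4, and 144 CPM in MEC LDeep. Its LEC values at P45 were 164, 208, 112, and 147 CPM in LII and 67.6, 84.1, 87.6, and 225 CPM in LDeep. The MEC layers did not overlap, and the test was not passed (LFC 0.65, SE 0.26, adjusted p = 0.0924). In the LEC the LDeep replicate 4 was the highest of all samples at that age (LFC 0.45, SE 0.26, adjusted p = 0.288). Without the samples that stand apart LII was higher in both regions (LFC 0.61, adjusted p = 0.0124 in the MEC and LFC 0.95, adjusted p = 0.000408 in the LEC). Leaving out only P45 replicate 4 also gave both calls (LFC 0.75, adjusted p = 0.0444 and LFC 0.98, adjusted p = 0.00658). The MEC difference at P45 was called as well with voom (LFC 0.76, adjusted p = 0.0279) and with pan-neuronal scaling (0.80, adjusted p = 0.0228), and that of the LEC with pan-neuronal scaling (LFC 0.79, adjusted p = 0.021). The MEC calls were lost at P9 without P9 replicates 1, 3, and 4 (LFC 0.71 to 0.88, adjusted p from 0.0641 to 0.126) and at P23 without P23 replicates 1, 2, and 3 (LFC 0.90 to 1.06, adjusted p from 0.0877 to 0.135). The region difference of LII at P9 passed without P2 replicates 1 and 4 and P45 replicate 4 (LFC 0.91 to 0.93, adjusted p from 0.0176 to 0.0484), and with voom (LFC 0.92, adjusted p = 0.0356), with DESeq2 (0.92, adjusted p = 0.0388), with samples of the layer alone (0.92, adjusted p = 0.0104), with samples of the age alone (0.91, adjusted p = 0.0118), and with pan-neuronal scaling (0.92, adjusted p = 0.0494).

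Over the ages, Cux2 was 1.45-fold higher in LII than in LDeep of the MEC (LFC 0.53, SE 0.13, adjusted p = 0.00105). The LEC gave LFC 0.10, SE 0.13, adjusted p = 0.592. Regions were not shown to differ in it (LFC 0.43, SE 0.19, adjusted p = 0.324). LII was higher in the MEC than in the LEC (LFC 0.40, SE 0.13, adjusted p = 0.0401). This call, close to the threshold, was lost in 9 of 16 left-out fits (without P2 replicates 2 and 5, P9 replicates 1, 2, and 3, P23 replicates 1, 2, and 3, and P45 replicate 3, LFC 0.36 to 0.42, adjusted p from 0.0611 to 0.129) and with pan-neuronal scaling (LFC 0.34, adjusted p = 0.0762). LDeep gave an LFC of -0.038 between the regions (adjusted p = 0.958). With age Cux2 rose in LII of the MEC (LFC 0.66, SE 0.19, adjusted p = 0.0018). It rose in LII of the LEC too (LFC 1.10, SE 0.19, adjusted p = 1.71e-06). The changes in LDeep were 0.086 in the MEC and 0.38 in the LEC (LFC, adjusted p = 0.706 and 0.0755). The LEC change passed the test in 6 of 16 left-out fits (without P2 replicate 2, P9 replicate 4, P23 replicate 3, and P45 replicates 1, 2, and 3, LFC 0.43 to 0.50, adjusted p from 0.0298 to 0.0493). From P2 to P9 Cux2 fell in LDeep of the MEC (LFC -0.80, adjusted p = 0.0087) and of the LEC (LFC -0.85, adjusted p = 0.00798). The MEC fall was lost without the samples that stand apart (LFC -0.45, adjusted p = 0.0653) and without P2 replicate 4 (LFC -0.59, adjusted p = 0.0641). From P9 to P23 it rose in LEC LII (LFC 1.11, adjusted p = 0.00161). LEC LDeep was just short of the threshold (LFC 0.68, adjusted p = 0.052). It passed without the 5 samples (LFC 0.69, adjusted p = 0.00392) and without P2 replicates 1, 2, 3, and 4, P9 replicate 4, P23 replicate 3, and P45 replicates 1, 2, 3, and 4 (LFC 0.68 to 0.93, adjusted p from 0.0191 to 0.0487). It passed also with RLE factors (LFC 0.70, adjusted p = 0.0476), with a minimum of 10 counts in every sample (0.70, adjusted p = 0.046), with DESeq2 (0.70, adjusted p = 0.0446), and with samples of the region alone (0.73, adjusted p = 0.0389). Between P2/P9 and P23/P45 the layer difference moved by 0.57 in the MEC and 0.72 in the LEC (LFC, adjusted p = 0.241 and 0.19). The LEC value passed without the 5 samples (LFC 0.93, adjusted p = 0.00145) and also without P45 replicate 4 (LFC 0.94, adjusted p = 0.0194).

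Pou3f2, a single-exon POU factor in most annotations, had the lowest mean CPM of the 5 in every group but LEC LDeep at P2, where Wfs1 was lower. At P2 it ranged over 7.74 to 11.4 CPM in MEC LII and 4.50 to 9.02 CPM in MEC LDeep, and 4.22 to 8.83 CPM in LEC LII and 7.18 to 13.1 CPM in LEC LDeep. The layers overlapped in each region and ran in opposite directions. The MEC gave LFC 0.40, SE 0.20, adjusted p = 0.198. LII of the LEC was lower than LDeep (LFC -0.75, SE 0.21, adjusted p = 0.00928). At P9 the ranges were 7.93 to 10.4 CPM in MEC LII and 4.27 to 6.89 CPM in MEC LDeep, and 6.34 to 7.14 CPM in LEC LII and 3.16 to 5.84 CPM in LEC LDeep. LII lay above LDeep without overlap in both regions at P9, with LFC 0.58, adjusted p = 0.0683 in the MEC and LFC 0.60, adjusted p = 0.076 in the LEC. Both passed the test without the samples that stand apart (LFC 0.59, adjusted p = 0.0366 and LFC 0.61, adjusted p = 0.0438). At P23 the ranges were 7.33 to 7.53 CPM in MEC LII and 3.87 to 6.32 CPM in MEC LDeep, and 4.38 to 7.13 CPM in LEC LII and 2.68 to 5.88 CPM in LEC LDeep. At P45 they were 6.80 to 9.36 CPM in MEC LII and 5.03 to 7.56 CPM in MEC LDeep, and 5.80 to 9.60 CPM in LEC LII and 3.86 to 8.70 CPM in LEC LDeep. The LEC call at P2 was lost without P2 replicates 4 and 5 (LFC -0.64 to -0.51, adjusted p from 0.0825 to 0.158) and with samples of the age alone (LFC -0.69, adjusted p = 0.0815). The P9 difference in the MEC was called with a minimum of 10 counts in every sample (LFC 0.63, adjusted p = 0.0474), with DESeq2 (0.61, adjusted p = 0.0452), with samples of the age alone (0.62, adjusted p = 0.0314), and with pan-neuronal scaling (0.86, adjusted p = 0.00836). That of the LEC was called with DESeq2 (LFC 0.65, adjusted p = 0.0499), with samples of the age alone (0.68, adjusted p = 0.0279), and with pan-neuronal scaling (0.88, adjusted p = 0.0106). The P9 differences passed without P2 replicate 1 (LFC 0.59, adjusted p = 0.0451 in the MEC and LFC 0.62, adjusted p = 0.0479 in the LEC). The MEC layers did not overlap at P23, the other pairs of layers did at P23 and P45. The LFC was 0.33 to 0.51 with adjusted p from 0.213 to 0.423.

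Over the ages Pou3f2 was 1.38-fold higher in LII of the MEC (LFC 0.47, SE 0.12, adjusted p = 0.00105). This was a call that limma voom with quantile normalization did not make (LFC 0.20, adjusted p = 0.142). The LEC gave LFC 0.15, SE 0.12, adjusted p = 0.333. LII was higher in the MEC than in the LEC (LFC 0.34, SE 0.12, adjusted p = 0.0486), but 14 of 16 left-out fits (without P2 replicates 2, 3, 4, and 5, P9 replicates 1, 2, 3, and 4, P23 replicates 1, 2, and 3, and P45 replicates 2, 3, and 4, LFC 0.29 to 0.35, adjusted p from 0.0509 to 0.124) and the fit without the 5 samples (LFC 0.30, adjusted p = 0.0636) did not call it. It was lost too with RLE factors (LFC 0.33, adjusted p = 0.0567), with no filter (0.33, adjusted p = 0.0648), with a minimum of 10 counts in every sample (0.33, adjusted p = 0.0506), and with pan-neuronal scaling (0.26, adjusted p = 0.196). At P2 alone this difference was LFC 0.63, adjusted p = 0.0575, and it passed without P2 replicate 1 (LFC 0.78, adjusted p = 0.0497) and with voom (LFC 0.75, adjusted p = 0.0191), with DESeq2 (0.63, adjusted p = 0.0485), and with samples of the layer alone (0.62, adjusted p = 0.0453). With age Pou3f2 in LEC LDeep fell (LFC -0.39, SE 0.17, adjusted p = 0.0424). That call was lost in 9 of 16 left-out fits (without P2 replicates 2, 4, and 5, P9 replicates 3 and 4, P23 replicate 3, and P45 replicates 1, 2, and 3, LFC -0.40 to -0.25, adjusted p from 0.0551 to 0.202) and with RLE factors (LFC -0.38, adjusted p = 0.0519), with no filter (-0.39, adjusted p = 0.0501), and with samples of the region alone (-0.37, adjusted p = 0.0901). The fall lay between P2 and P9 (LFC -1.18, SE 0.22, adjusted p = 4.08e-05). The other 3 tissues gave -0.26, -0.20, and 0.066 (LFC in MEC LII, MEC LDeep, and LEC LII), none of them called by edgeR, and MEC LII was called with voom (LFC -0.42, adjusted p = 0.0121). The layer difference of Pou3f2 was not shown to change with region or age (LFC 0.31, adjusted p = 0.467 between regions). Between ages it moved by -0.054 in the MEC and 0.46 in the LEC (LFC, adjusted p = 0.943 and 0.461).

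**Figure D4:**
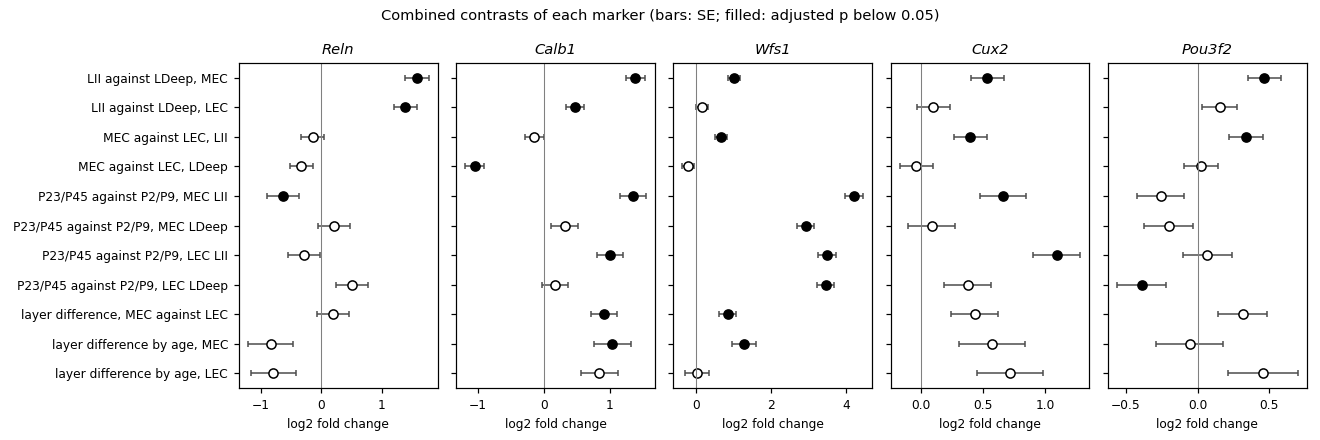
Log2 fold change of each marker in 11 comparisons, 1 panel per gene with its own horizontal axis, bars as SE from the edgeR fit, and filled points where the adjusted p is below 0.05. All 5 genes are filled for LII against LDeep in the MEC, Reln and Calb1 are filled in the LEC, and Calb1 in LDeep lies at -1.05 for MEC against LEC.

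Levels can be set between genes only per length of exon (CPM per kb, mean ± SD over the samples of a group). In MEC LII at P2 the order was Reln at 87.6 ± 25.5, Calb1 at 35.2 ± 5.28, Cux2 at 18.2 ± 6.28, Pou3f2 at 5.17 ± 0.766, and Wfs1 at 4.21 ± 0.441 CPM per kb (n = 5). Reln stood well above the rest, and the last pair was within its spread. By P45 the order in the same tissue was Wfs1 at 203 ± 28.1, Calb1 at 144 ± 9.74, Reln at 37.7 ± 6.94, Cux2 at 32.4 ± 1.95, and Pou3f2 at 4.32 ± 0.623 CPM per kb (n = 4), with Reln and Cux2 within their spread. Wfs1 thus went from the lowest pair to the first place, and Reln from the first to the third. LEC LII at P45 had Calb1 at 142 ± 14.4 and Wfs1 at 119 ± 28.3 CPM per kb, within their spread, followed by Reln at 65.4 ± 34.3, Cux2 at 31.0 ± 7.87, and Pou3f2 at 4.12 ± 0.864, where Reln overlapped in its spread with both Wfs1 and Cux2. In MEC LDeep at P45 Wfs1 was at 88.5 ± 15.6 and Calb1 at 60.2 ± 13.6 CPM per kb, not apart beyond their spread, with Reln at 22.3 ± 9.67 and Cux2 at 20.7 ± 5.69 likewise. LEC LDeep at P45 had Calb1 at 109.7 ± 35.0 and Wfs1 at 110.4 ± 68.4 CPM per kb, which did not differ beyond their spread.

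Counted over the 5 genes at single ages, LII differed from LDeep in the MEC for 1 at P2 (Reln), 4 at P9 and 4 at P23 (all but Pou3f2), and 2 at P45 (Calb1 and Wfs1), all higher in LII. Of all genes, 9.23%, 17.7%, 16.5%, and 14.8% were called at these ages. In the LEC the counts were 2 at P2 (Reln higher and Pou3f2 lower), 1 at P9 (Reln), 1 at P23 (Calb1), and 0 at P45, beside 12.1%, 15.5%, 11.3%, and 13.3% of all genes. At P45 in the LEC edgeR gave 1 gene at an unadjusted p below 0.05, DESeq2 called 0, limma voom 1, and edgeR without the 5 samples 2. Between regions with ages combined, 3 of 5 were higher in LII of the MEC (Wfs1, Cux2, and Pou3f2) and 1 of 5 was lower in LDeep of the MEC (Calb1), where 8.38% of all genes were higher and 2.97% lower. In LII, Wfs1 kept its call in 25 of 25 alternative fits, but Cux2 in 15 and Pou3f2 in 6. Calb1 in LDeep kept its call in 25 of 25. At single ages the regions differed for Wfs1 in LII at P23 and for Calb1 in LDeep at P9, and the other 6 comparisons called 0 of 30, beside 9 at an unadjusted p below 0.05, 2 in DESeq2, and 2 in limma voom. All genes were called at 5.85%, 1.64%, 2.20%, and 4.52% in LII from P2 to P45, and at 0.327%, 1.88%, 0.711%, and 1.69% in LDeep.

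Between P2/P9 and P23/P45, 4 of 5 changed in MEC LII (Wfs1, Calb1, and Cux2 higher, Reln lower), 1 in MEC LDeep (Wfs1), 3 in LEC LII (Wfs1, Cux2, and Calb1), and 2 in LEC LDeep (Wfs1 higher, Pou3f2 lower). Age moved most genes, since 66.5%, 66.2%, 62.7%, and 64.5% of all genes were called in these tissues. From P2 to P9 the counts were 2, 3, 2, and 4 of 5 in MEC LII, MEC LDeep, LEC LII, and LEC LDeep, beside 35.4%, 43.8%, 27.9%, and 33.4% of all genes. From P9 to P23 they were 1, 1, 2, and 2, beside 38.5%, 38.7%, 35.0%, and 39.3%. From P23 to P45 edgeR called 0 in the 20 tests, as did DESeq2 and limma voom, with 2 at an unadjusted p below 0.05. Of all genes, 0.104%, 0.224%, 0.224%, and 0.128% were called in the 4 tissues. LII and LDeep differed more in the MEC than in the LEC for 2 of 5, Calb1 and Wfs1, where 0.942% of all genes were. Calb1 kept this call in 22 of 24 alternative fits and Wfs1 in only 10. The layer difference changed with age for the same pair in the MEC (2 of 5, 5.26% of all genes). In the LEC it did for 0 of 5, where edgeR gave 3 at an unadjusted p below 0.05, DESeq2 and limma voom called 0, and 2.23% of all genes were called. In fits of 1 region, Calb1 was called in the LEC (LFC 0.78, adjusted p = 0.0246) and not in the MEC (LFC 1.04, adjusted p = 0.0793). The region difference changed with age for 0 of 5 in either layer by edgeR, DESeq2, and limma voom (1 at an unadjusted p below 0.05), beside 2.16% of all genes in LII and 0.575% in LDeep.

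The other genes of reelin signalling were called between the layers about as often as all genes. The list holds the receptor Vldlr, the kinases and adaptors that carry the signal, and the proteases that cut reelin. A further receptor, Lrp8, and Rapgef1 were listed but not measured here. Of 14 tested, 2 were higher and 3 lower in LII of the MEC (median LFC -0.046, all genes -0.03), and 2 higher and 4 lower in the LEC (median LFC -0.081, all genes -0.057), where 40.8% of all genes in the MEC and 38.6% in the LEC were called in either direction. The pair of ADAMTS proteases that cleave reelin moved apart: Adamts2 was higher in LII (LFC 1.38 in the MEC and 1.03 in the LEC) and Adamts3 lower (-1.45 and -1.17). Dab1, the adaptor bound by reelin receptors, was higher in LII (0.31 and 0.40), and Pik3r1, a regulatory subunit of phosphoinositide 3-kinase, lower (-0.49 and -0.29). With age, 2 of these genes rose and 3 fell in MEC LII, with Adamts2 (LFC 1.12) and Src (0.50) up, and Fyn (-0.58) and Cdk5r1 (-0.57) down, beside 66.5% of all genes called in either direction.

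Among 15 other EF-hand calcium-binding proteins of neurons, 2 were higher and 6 lower in LII of the MEC (median LFC -0.28), and 0 higher and 8 lower in the LEC (median LFC -0.17). Between the layers 40.8% of all genes in the MEC and 38.6% in the LEC were called in either direction. The calcium sensor Ncald (LFC -1.05 in the MEC and -0.95 in the LEC) and calretinin, Calb2 (-0.93 and -1.17), were lower in LII, opposite in sign to Calb1. With age, 10 of 15 rose and 2 fell in MEC LII (median LFC 1.18, all genes 0.011), and 10 rose and 2 fell in LEC LII. Of all genes 66.5% changed in MEC LII and 62.7% in LEC LII. Parvalbumin, Pvalb, a buffer of fast-spiking interneurons, had the largest rise (LFC 6.35 in MEC LII), and the potassium channel partner Kcnip3 (2.53) and Cabp1 (2.06) rose as well. Of 17 genes of endoplasmic reticulum stress and calcium handling, 1 was higher and 2 lower in LII of the MEC, each with a small LFC: Atf6 0.17, Atf4 -0.25, and Xbp1 -0.18. In the LEC 0 were higher and 3 lower. These counts stand beside the same 40.8% and 38.6% of all genes called between layers. With age 6 rose and 4 of 17 fell in MEC LII (median LFC 0.032), beside 66.5% of all genes changed. The largest rises were those of Itpr1, the calcium release channel of that organelle (LFC 2.49), Ddit3 (0.95), Atf6 (0.88), and the calcium pump gene Atp2a2 (0.61), each below the rise of Wfs1 in the same tissue.

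Of 8 tested relatives of Cux2 and Pou3f2 among cut-type and POU homeobox genes, 2 were higher in LII of the MEC, Pou3f4 (LFC 1.08) and Satb1 (0.50). In the LEC 0 were higher, and Satb1 was lower (-0.41). Of all genes, 40.8% in the MEC and 38.6% in the LEC were called between layers in either direction, the background of both lists here. Between regions, 5 of 8 relatives were higher in LII of the MEC than of the LEC (median LFC 0.44, all genes 0.01), where 8.38% of all genes were higher. Satb1 was at 1.48, Pou3f1 at 0.80, Pou3f4 at 0.54, and Pou3f3 at 0.40, the same direction as Cux2 and Pou3f2. The layer difference was larger in the MEC for 2 of the 8 relatives, Satb1 (LFC 0.90) and Pou3f4 (0.83), where 0.942% of all genes were. Of 13 other markers of upper-layer neurons, a list that shares Pou3f1 and Pou3f3 with the relatives, 5 were higher and 2 lower in LII of the MEC (median LFC 0.33), and 3 higher and 2 lower in the LEC (median LFC -0.009). The semaphorin receptor gene Plxnd1 (LFC 0.96 in the MEC and 0.81 in the LEC) and the LIM homeobox gene Lhx2 (0.74 and 0.51) were higher in LII in both regions, and Inhba, an activin subunit, was higher in the MEC (0.79).

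The courses of the 5 genes over the 16 group means of log2 CPM were only partly alike. As a description over these means, which share samples between genes, Pearson's r was 0.658 for Calb1 and Wfs1, 0.535 for Wfs1 and Cux2, 0.515 for Reln and Pou3f2, -0.0658 for Reln and Wfs1, and -0.287 for Wfs1 and Pou3f2. Among 11896 genes with a mean of at least 1 CPM, those whose group means were most like those of Reln included Aldh1l1 (0.935) and Zic4 (0.912), the first of them an astrocyte marker. Those most like Calb1 were Camk2d (0.922), Col8a1 (0.901), and Wnt16 (0.893), a kinase subunit, a collagen, and a Wnt ligand. Nearest to Wfs1 were Cdk14 (0.985), Cyp2d4 (0.985), and Ttpa (0.984), and age spans most of the range of all 4. Those of Cux2 were Ppara (0.904), Src (0.904), and Phka1 (0.898), a nuclear receptor, a tyrosine kinase that also belongs to the reelin list, and a subunit of phosphorylase kinase. For Pou3f2 the nearest were Zfp219 (0.866), Plcb2 (0.820), and Ripk1 (0.804), the lowest values of the 5 sets. Without the 5 samples that stand apart, the r of the genes named here lay between 0.757 and 0.986.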

How the data were processed

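RNA-seq was done on 64 samples of rat entorhinal cortex. Per the labels and the study's methods, tissue slices were kept in RNAlater, layers were dissected by hand, ribosomal RNA was depleted, and stranded libraries were sequenced as read pairs. The study's methods describe the dissection for the MEC. The authors' processing notes name bcl2fastq 1.8.4, Trimmomatic 0.33, STAR 2.4.0, and featureCounts of Subread 1.4.6-p1, with the rat build rn6. The deposited files hold whole-number counts per gene, not normalized, and beside them the exon coordinates and the summed exon length per gene as the authors' counting tool wrote them. Reads shared by overlapping genes or near-identical copies may be lost in such counts. All columns were matched to a sample (0 were not). Total counts were 3894334 to 11439143 per sample, so that 1 count equals 0.0874 to 0.257 CPM.

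Counts were analysed in R 4.3.3 with edgeR 4.0.16: filterByExpr (12521 genes kept), TMM factors, 1 mean per group over 16 groups, and the quasi-likelihood test with Benjamini-Hochberg adjustment over all genes kept, at 0.05. Ages were weighted equally. SE is the LFC divided by the square root of the F statistic. All 64 samples entered every fit, so that the groups share 1 estimate of the spread. Log2 CPM used a prior count of 2. Named genes are the members, up to 4 called genes of each list with the largest LFC in a comparison, and the 3 genes whose group means correlate best with each member. Some genes that this rule names are not reported here. Tp73 and Lhx5 and any other gene named outside this rule were chosen after their values were seen. The members and lists were chosen with earlier results of these data known.

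Alternatives were RLE factors, no filter, a minimum of 10 counts in every sample, limma 3.58.1 (voom with quantile normalization), DESeq2 1.42.0, subsets of samples, a replicate block, scaling on pan-neuronal genes, and 16 fits that each left out the 4 samples of 1 replicate number at 1 age. The labels number replicates within an age. For its miRNA samples the study states that a number within an age marks LII and LDeep of 1 animal. For these libraries no source used here states it, so samples were not paired, and fits with the number as a block are given as an alternative. No 2 replicates agreed within sampling noise. Statistical scripts were tested on simulated counts.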

Additional observations from a re-analysis of the deposited data

Results flagged for a closer look

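Of 60 groups of 4 or 5 samples (5 genes), 6 had a sample far from the others, where chance gives about 1 in 20. The value was 7.06 log2 CPM for Calb1 in LEC LII P9 replicate 4 (nearest sample 7.60). Wfs1 had 4 such samples, at 4.83 log2 CPM in MEC LDeep P2 replicate 4 (nearest 3.71), 4.66 in MEC LDeep P9 replicate 4 (nearest 5.83), 5.20 in LEC LII P9 replicate 4 (nearest 6.08), and 9.39 in MEC LII P45 replicate 4 (nearest 9.05). Cux2 was at 6.39 log2 CPM in LEC LDeep P9 replicate 4 (nearest 5.80). Of the 6 samples, 4 values are from P9 replicate 4 and 1 is from a sample that stands apart over all genes.

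In 4 results the effect differed between groups by the edgeR test of the difference itself. The layer difference was larger in the MEC than in the LEC for Calb1 (LFC 0.91) and Wfs1 (LFC 0.85), and in the MEC it was larger at P23/P45 than at P2/P9 for Calb1 (LFC 1.04) and Wfs1 (LFC 1.29). Between regions, Calb1 kept its call in 22 of 24 alternative fits and Wfs1 in only 10. Between ages in the MEC, Calb1 kept its call in 17 of 24 and Wfs1 in 24.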

How the results depend on the processing

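For the 5 genes, 5100 comparisons with an alternative were made over 205 results. Of these, 4907 kept their side of the threshold, 91 lost a call, 102 gained one, and 0 reversed a call. Results called in neither fit count as kept whatever their direction, and some of them changed sign. The cause was not tested for those that changed. With voom, Pou3f2 gave 0.20 between layers of the MEC (call lost), -0.42 with age in MEC LII (call gained), and Wfs1 0.79 for layer difference by region (call lost). Pan-neuronal scaling gave calls between layers of the LEC for Wfs1 (0.42), Cux2 (0.34), and Pou3f2 (0.39), and lost those between regions in LII for Cux2 (0.34) and Pou3f2 (0.26) and for layer difference by region for Calb1 (0.83) and Wfs1 (0.78). Pou3f2 between regions in LII was also lost with RLE (0.33), no filter (0.33), the minimum of 10 counts (0.33), and 5 samples left out (0.30), and its fall in LEC LDeep with RLE (-0.38), no filter (-0.39), and samples of the region alone (-0.37).

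Genes called between layers were 3312 (of 5112) in the MEC and 2892 (of 4835) in the LEC with 10 counts in every sample, where fewer genes were tested. For layer difference by region, 156 genes became 286 with a replicate block, 87 with pan-neuronal scaling, 342 without the 5 samples, and 63 to 218 in the left-out fits. Pan-neuronal scaling moved the share of higher genes among those called between layers from 51.4% to 86.9% in the MEC and from 45.0% to 91.4% in the LEC, and in LII between regions from 66.3% to 41.6% (54.6% with voom). For layer difference by region that share was 75.6%, against 50.6% with pan-neuronal scaling and 65.5% with DESeq2, and for region difference by age in LDeep 79.2% against 66.2% with DESeq2.

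The 16 left-out fits ranged from 0.36 to 0.43 for Cux2 and 0.29 to 0.37 for Pou3f2 between regions in LII, and for layer difference by region from 0.78 to 1.02 for Calb1 and 0.73 to 0.95 for Wfs1. With age they ranged from -0.87 to -0.58 for Reln in MEC LII, 0.10 to 0.59 for Calb1 in MEC LDeep, and in LEC LDeep from 0.24 to 0.63 for Reln, 0.13 to 0.50 for Cux2, and -0.48 to -0.25 for Pou3f2.

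The replicate block changed 11 of 125 results of the 5 genes, all to a call. Deviations from the group means of samples with the same number had a mean correlation of 0.134 (-0.259 to 0.554 over 96 pairs, 55 of them over 0.1), and 37 of 64 samples correlated best with their own number. Pairs of the same age with another number had a mean of -0.043 (-0.575 to 0.548 over 300 pairs, 59 of them over 0.1). The gains were layer differences of Reln (0.89 in the MEC and 1.09 in the LEC at P45, 1.05 in the LEC at P23), Cux2 (0.70, MEC P45), and Pou3f2 (0.59 and 0.62 at P9), region differences in LII of Pou3f2 (0.64, P2), Cux2 (0.93, P9), and Wfs1 (0.76, P45), and changes with age for Cux2 (0.78, layers of the LEC) and Wfs1 (0.72, regions in LII). Precision was lowest for Pou3f2, with 19 to 120 counts per sample.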
